A study of Homo sapiens with 3 samples.

Results

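The genes examined encode collagen chains, laminin chains and integrin subunits, followed through an inducible knockdown of the ER ubiquitin ligase HRD1. They were chosen by symbol among the protein-coding genes. Of 58243 genes in the files, 81 were members: 43 collagens, 12 laminins, 18 integrin alpha subunits and 8 integrin beta subunits. A mean of at least 50 reads over the libraries was reached by 32 of the 81, namely 13 collagens, 8 laminins, 7 integrin alpha and 4 integrin beta subunits, and ratios are given for these. The other 49 are given by their reads, with a ratio over day 0 added only where its 95% counting interval excluded 1. The added ratios were picked by that rule from all 49. No share of all genes under the minimum is given beside them, so they describe single genes. The minimum is a mean over all libraries, so a member high in 1 library could pass through it. Just above the minimum were COL5A2, with a mean of 72.3 reads, and LAMA1, with 73.3. Just below it were ITGB3, with 49.3, LAMA2, with 47.3, and COL27A1, with 41.3.

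The cells were labelled LoVo, a human colorectal carcinoma line, and every library came from the same Tet-On line, which carries a doxycycline-inducible short hairpin RNA against HRD1 (gene SYVN1). Doxycycline at 1 µg/ml was given for 0, 3 or 5 days, and the day 0 cells carry the uninduced hairpin. The study asked how ER stress from loss of HRD1 alters expression. Each time is a single library, so every ratio compares libraries, without replicates to check it against and without a p-value. No library with doxycycline and another hairpin was analysed here, so doxycycline, hairpin and time in culture cannot be told apart.

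Collagens are made in the ER as chains that are hydroxylated, glycosylated and wound into triple helices before export in large carriers. Laminins assemble there as heterotrimers of an alpha, a beta and a gamma chain and become a main component of basement membranes. Integrins pair an alpha with a beta subunit in the ER and act at the surface as receptors for collagens, laminins and other matrix proteins. HRD1 serves ER-associated degradation, which clears chains that do not fold.

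The libraries held 21308785, 22068686 and 25754188 gene reads at day 0, day 3 and day 5. The targeted SYVN1 had 1212, 650 and 709 reads in the same order, with a log2 ratio of -0.88 at day 3 over day 0 and of -1.05 at day 5 over day 0. HSPA5, the ER chaperone BiP, had 23137, 37668 and 38151 reads, with log2 ratios of 0.72 and 0.44. Of 10 epithelial markers, 3 (KRT8, KRT18 and KRT19) reached 1 TPM in every library, whereas EPCAM had 17, 14 and 19 reads, CDH1 3, 2 and 10, VIL1 0, 0 and 16, and CDX2 0 in each. Most of the epithelial list therefore goes against the labelled cell type, and the libraries are called by their labels throughout. Of 10 fibroblast and mesenchymal markers, VIM, COL1A1 and PDGFRB reached 1 TPM in every library, and DCN and FAP were at 0 reads in all. Of 12 liver markers, 1 reached 1 TPM at day 0 and at day 3, and 9 did at day 5, where ALB had 114 reads against 0 in both other libraries. The day 5 library thus stands apart in these transcripts, and their part in the results was not tested. In bulk RNA, fewer cells of a type and less RNA per cell cannot be told apart.

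Collagen, laminin and integrin transcripts together took a smaller share of the reads at both later days. The share was 0.555% [0.552 to 0.558] at day 0, 0.477% [0.474 to 0.479] at day 3 and 0.467% [0.464 to 0.469] at day 5, with 95% exact intervals in square brackets here and below, covering only the error of counting. The sum of the authors' TPM, a level per length, was 3201, 2681 and 2644. Laminins accounted for the larger part of the difference: they held 0.204%, 0.159% and 0.148% of reads at day 0, day 3 and day 5. Integrin alpha subunits held 0.154%, 0.139% and 0.137%, integrin beta subunits 0.119%, 0.110% and 0.113%, and collagens 0.0783%, 0.0689% and 0.0690%. Intron reads made up 5.19%, 4.15% and 5.29% of members' reads, beside 6.01%, 5.59% and 6.68% over all genes.

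**Figure D1:**
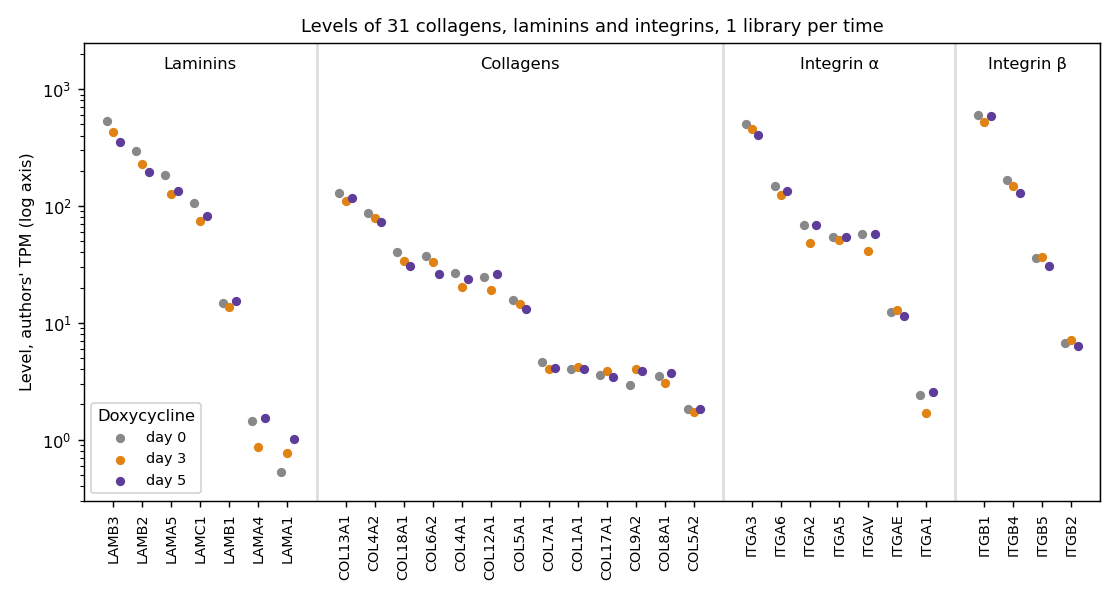
Level of 31 of the 32 measured members in the authors' TPM (log axis), with 1 point per library at day 0 (grey), day 3 (orange) and day 5 (purple), grouped by family and ordered by mean level. ITGB1, ITGA3 and LAMB3 have the highest levels, and LAMB3, LAMB2, LAMA5 and LAMC1 are lower at both later days than at day 0.

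Gene by gene, most members at day 3 lay a little below day 0. At day 3 over day 0, 23 of 32 measured members had a ratio below 1 (48.0% of 12593 genes compared), and 15 of the 32 (46.9%) had an interval wholly below 1, as did 20.8% of all genes. An interval wholly above 1 was found for 2 of the 32 (6.25%), as for 25.2% of all genes. The median log2 ratio of the members was -0.06, against 0.01 over all genes. The size counted as a difference, 1.5-fold or more with 1 outside the interval, was reached by 1 member upwards, COL9A2 (3.12% of 32, as for 1.29% of all genes), and by 0 members downwards (2.53% of all genes). Most of the intervals that excluded 1 were thus below it, and the ratios were close to 1. Whether a counting interval excludes 1, here and at day 5, depends on read depth. No genes of like depth were set beside the members.

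At day 5 over day 0, 18 of 32 members had a ratio below 1 (48.8% of all genes), and 14 (43.8%) had an interval below 1, as did 22.4% of all genes. An interval above 1 was found for 2 of 32, as for 22.8% of all genes. The median was -0.03, against 0.01 over all genes. The 1.5-fold size was reached by 1 member upwards, LAMA1 (1.76% of all genes), and by 0 downwards (1.28%). At day 5 over day 3 the median was -0.04 (0.07 in TPM and 0.04 with library totals), with 15 of 32 ratios above 1 (50.1% of all genes), and the 1.5-fold size was reached by 1 member upwards, LAMA4 (2.29% of all genes), and by 0 downwards (0.961%). The day 3 and day 5 comparisons share the day 0 library.

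Members are long and often rich in GC, and both properties moved with the ratios over all genes. The median exon length was 7803.5 bases in measured members and 4914 bases in all genes compared, and the median GC content of the transcript was 55.1% against 47.9%. Over all genes, Spearman's rho of the day 3 over day 0 ratio with exon length was -0.37, and that of the day 5 over day 0 ratio with GC content was -0.41. With mean reads, rho in the 32 members was -0.46 at day 3 and -0.70 at day 5 over day 0. Over all genes it was 0.12 and -0.07. These correlations are across genes of the same libraries and are descriptions. In the eighth of genes with the longest exons, the median day 3 over day 0 log2 ratio was -0.15, against 0.16 in the shortest eighth. Of the 32 members, 28 were in the 3 longest eighths and 10 in the eighth richest in GC.

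Among the 7562 genes at least as long as the shortest measured member (4151 bases), 59.5% had a ratio below 1 and 28.6% an interval below 1 at day 3 over day 0, and their median log2 ratio was -0.04. After smooth trends on exon length and GC content were removed from all ratios, the members' median was -0.03 in both later comparisons with day 0. The trend-removed ratio was below 1 in 17 of 32 members at day 3 (47.7% of all genes) and again in 17 of 32 at day 5 (48.8%). The 17 at day 3 were 6 of 8 laminins, 5 of 13 collagens, 4 of 7 integrin alpha and 2 of 4 integrin beta subunits. The laminin median at day 3 was -0.21, and -0.22 with the trends removed. At day 5 it was -0.17, and -0.06 with the trends removed, when 4 of the 8 were below 1. The collagen median at day 3 was -0.04 and turned to 0.07 with the trends removed, and that at day 5 was -0.13 and turned to 0.09. The integrin alpha median was -0.14 at day 3, -0.08 with the trends removed and -0.02 over the 3 subunits with at least 90% uniquely placed reads. At day 5 it was 0.01, turning to -0.06 with the trends removed, -0.03 by unique reads and -0.01 in TPM. The integrin beta median was 0.02 at day 3, turning to -0.08 in TPM and -0.04 with library totals, and -0.10 at day 5.

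**Figure D2:**
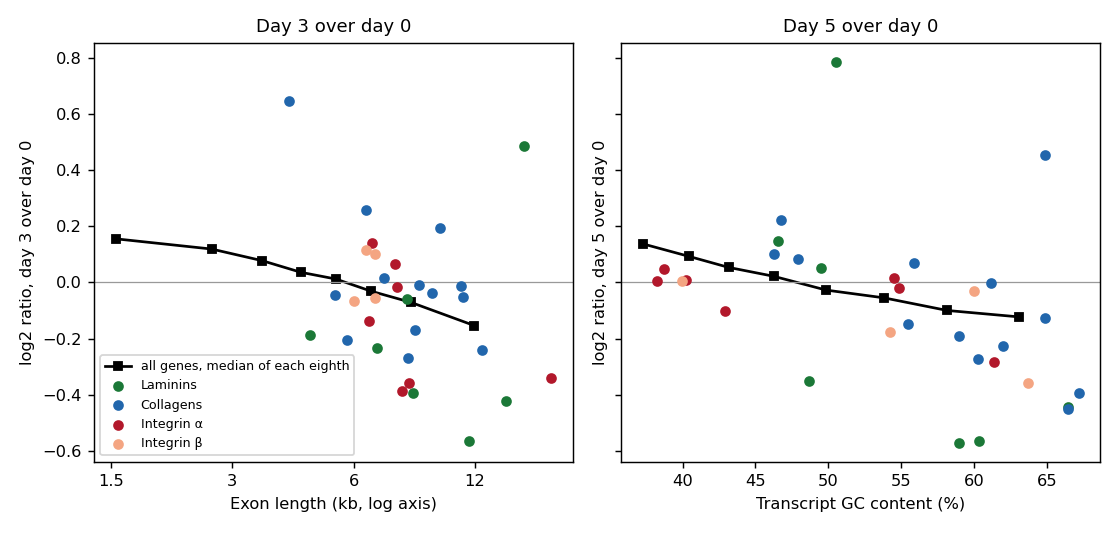
Left, log2 ratio at day 3 over day 0 against exon length (kb, log axis); right, log2 ratio at day 5 over day 0 against transcript GC content (%). Coloured points are 31 of the 32 measured members and the black line joins the medians of all genes in 8 equal groups; both lines fall, and LAMA5, LAMB2, LAMB3 and LAMC1 lie below them in both panels.

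Laminins had the largest differences among the abundant members, and the chains of the trimers built on LAMA5 were lower at both later days, apart from LAMB1. LAMA5 is the alpha 5 chain of the basement membranes of most adult epithelia (ENSG00000130702, GRCh38 chromosome 20, positions 62307955 to 62367312, minus strand). Its reads numbered 14346 at day 0, 10591 at day 3 and 12810 at day 5, at 183, 127 and 134 TPM. The log2 ratio was -0.42 [-0.46 to -0.38] at day 3 over day 0 and -0.44 [-0.48 to -0.41] at day 5 over day 0. With 14291 bases of exon and 66.4% GC it is among the longest and most GC-rich members, and with the trends removed the ratios were -0.25 and -0.20. LAMC1, the gamma 1 chain shared by most laminins (ENSG00000135862, chromosome 1, positions 183023460 to 183145592, plus strand), had 4535, 3411 and 4317 reads at 107, 74.3 and 82.9 TPM. Its log2 ratios were -0.39 [-0.46 to -0.33] and -0.35 [-0.41 to -0.29], and -0.31 and -0.29 with the trends removed. LAMA5 and LAMC1 thus differed from day 0 by a similar amount, and the TPM of LAMA5 over that of LAMC1 was 1.71, 1.71 and 1.61.

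LAMB2, the beta 2 chain that can take the place of beta 1 (ENSG00000172037, chromosome 3, positions 49121114 to 49133118, minus strand), counted 10238, 8604 and 8407 reads at 294, 229 and 197 TPM. The log2 ratio was -0.23 [-0.28 to -0.19] at day 3 and -0.56 [-0.61 to -0.52] at day 5 over day 0. LAMB1, the beta 1 chain, had 690, 655 and 869 reads, and its log2 ratios of -0.06 and 0.05 had intervals that held 1. The beta chains therefore differed: LAMB2 stood 19.98, 16.9 and 12.8 times above LAMB1 in TPM at day 0, day 3 and day 5.

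LAMB3 and LAMA3 are the beta and alpha chains of an anchoring laminin of epithelia, and they were at very unequal levels here. LAMB3 (ENSG00000196878, chromosome 1, positions 209614870 to 209652466, minus strand) counted 12469, 10837 and 10199 reads at 531, 426 and 352 TPM, with log2 ratios of -0.19 [-0.22 to -0.15] and -0.57 [-0.61 to -0.53]. With the trends removed they were -0.23 and -0.46. The day 5 ratio was the lowest of the measured members and lay just short of 1.5-fold, which it passed in TPM, at -0.59, and in exon reads. LAMA3, under the minimum, had 24, 22 and 32 reads at 0.345, 0.263 and 0.305 TPM. The alpha chain was thus near absent beside the beta chain.

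LAMA1, the alpha 1 chain of early embryonic basement membranes, had 49, 68 and 103 reads, or 0.523, 0.765 and 1.02 TPM. Its log2 ratio was 0.49 [-0.06 to 1.05] at day 3 and 0.79 [0.29 to 1.31] at day 5 over day 0, the highest ratio of the measured members at day 5, which was short of 1.5-fold on the log2(TPM + 0.5) scale, at 0.57, a scale that understates the ratios of low genes. LAMA4, an alpha chain of vascular and mesenchymal basement membranes, had 84, 56 and 113 reads, with log2 ratios of -0.56 [-1.08 to -0.06] at day 3 over day 0 and 0.71 [0.24 to 1.20] at day 5 over day 3. The day 5 over day 3 ratio was short of 1.5-fold by uniquely placed reads, at 0.58, and on the same TPM scale, at 0.57. The day 3 over day 0 ratio was past 1.5-fold lower with library totals, at -0.63, and in exon reads, at -0.62. By uniquely placed reads it was -0.39 [-0.92 to 0.13], an interval that held 1, and with the trends removed it was -0.42. Both alpha chains were at about 1 TPM, far below LAMA5 on the same scale.

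Promoter windows are shown for LAMA5, LAMB2 and LAMC1, the chains of the trimers built on LAMA5 that were lower at both later days. They come from RefSeq on GRCh38.p14 and run 5′ to 3′ on the gene's strand over the 250 bases before the start. GC boxes (GGGCGG on either strand) are in capitals. LAMB3, also lower at both days, had a GC box and a CCAAT box in its window and is not printed. The printed windows lie at chr20:62367313-62367562 (minus), chr3:49133051-49133300 (minus) and chr1:183023170-183023419 (plus).
LAMA5: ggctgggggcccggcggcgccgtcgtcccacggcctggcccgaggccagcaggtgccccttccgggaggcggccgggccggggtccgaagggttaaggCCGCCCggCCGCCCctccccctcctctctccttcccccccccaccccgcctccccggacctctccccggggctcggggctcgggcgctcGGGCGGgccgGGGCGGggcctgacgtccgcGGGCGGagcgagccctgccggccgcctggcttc
LAMB2: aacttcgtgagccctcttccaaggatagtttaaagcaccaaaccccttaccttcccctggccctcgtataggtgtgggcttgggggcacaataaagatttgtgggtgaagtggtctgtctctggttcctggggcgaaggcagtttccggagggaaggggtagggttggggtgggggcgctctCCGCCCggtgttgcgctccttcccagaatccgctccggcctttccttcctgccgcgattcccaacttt
LAMC1: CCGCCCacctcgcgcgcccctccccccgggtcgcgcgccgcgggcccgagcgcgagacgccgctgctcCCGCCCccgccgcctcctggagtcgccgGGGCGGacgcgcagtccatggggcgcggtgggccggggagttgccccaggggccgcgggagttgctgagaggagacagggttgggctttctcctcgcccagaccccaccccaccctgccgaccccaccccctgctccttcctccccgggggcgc
The 3 windows held 5, 1 and 3 GC boxes. The table had a window, which also takes in the first 50 bases after the start, for 58 of the 81 members and 24 of the 32 measured. A GC box was in 35 of the 58 (60.3%), in 18 of the 24 (75%) and in 48.3% of the windows of 27305 genes. LAMB1, whose ratios over day 0 had intervals that held 1, had a GC box as well. The ER stress response element, spelled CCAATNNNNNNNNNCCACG on either strand, was in 0 of the 58 windows and in 25 of 27305 genes (0.0916%). One of the 25 is HSPA5, whose site at chr9:125241391-125241409 (minus) is printed to show the letters sought, with the fixed bases in capitals.
HSPA5: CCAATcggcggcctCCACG
A CCAAT box, part of that element, was in 18 of the 58 windows (31.0%) and in 39.7% of all windows. A match describes letters in a window and no more.

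Collagens were at lower levels than laminins and integrins, and the basement membrane and membrane-anchored types led. COL13A1, a transmembrane collagen (ENSG00000197467), was the highest, with 4861, 4168 and 5169 reads at 130, 111 and 116 TPM. Its log2 ratios were -0.21 [-0.27 to -0.15] and -0.19 [-0.25 to -0.14] at day 3 and day 5 over day 0. With the trends removed they were -0.22 and -0.07. Of the reads of COL13A1, 1164, 750 and 1111 were intron reads, more than in any other measured collagen. The collagens as a family had 12.2%, 9.41% and 11.5% intron reads. COL18A1, the basement membrane collagen that yields endostatin (ENSG00000182871, chromosome 21, positions 45405137 to 45513720, plus strand), had 1926, 1693 and 1783 reads, with log2 ratios of -0.17 [-0.26 to -0.07] and -0.39 [-0.49 to -0.30]. With 67.2% GC it is the most GC-rich measured member, and with the trends removed the ratios were -0.08 and -0.18. Of the reads of COL18A1, 84.5% were uniquely placed.

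COL4A1 and COL4A2, the chains of the main collagen IV trimer, are transcribed in opposite directions from a shared promoter region. COL4A2 had 3828, 3757 and 3980 reads at 86.8, 79.0 and 73.6 TPM, with log2 ratios of -0.01 [-0.08 to 0.06] and -0.22 [-0.29 to -0.16]. COL4A1 had 1107, 907 and 1215 reads at 26.7, 20.2 and 23.9 TPM, with log2 ratios of -0.27 [-0.40 to -0.14] and -0.15 [-0.27 to -0.03]. With the trends removed the ratios were 0.07 and -0.04 for COL4A2, and -0.22 and -0.02 for COL4A1. The pair was not in step at day 3: COL4A2 was below day 0 by less than its counting error and COL4A1 by more, and the TPM of COL4A2 over that of COL4A1 was 3.25, 3.91 and 3.08. The 126 bases between the starts of both genes (RefSeq, GRCh38.p14, chr13:110307158-110307283, plus strand) hold 1 CCAAT box and 1 GC box, in capitals.
COL4A1-COL4A2: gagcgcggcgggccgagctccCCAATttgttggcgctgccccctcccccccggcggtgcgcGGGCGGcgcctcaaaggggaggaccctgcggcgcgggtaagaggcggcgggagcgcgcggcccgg
Of the 24 measured members with a window, 5 had a CCAAT box. COL4A1 and COL4A2 were among these, and the printed box lies in the windows of both and was counted for each.

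COL6A2, a chain of the microfibrillar collagen VI, had 1069, 1023 and 949 reads at 37.5, 32.9 and 26.0 TPM. Its log2 ratio was -0.05 [-0.17 to 0.08] at day 3 and -0.45 [-0.58 to -0.33] at day 5 over day 0, the lowest collagen at day 5, and -0.28 with the trends removed. COL12A1, a collagen that binds to fibril surfaces, had 1555, 1302 and 2026 reads, with log2 ratios of -0.24 [-0.35 to -0.13] and 0.10 [0.00 to 0.20]. It was therefore on opposite sides of day 0 at the later days. COL5A1, a regulator of fibril width, had 1112, 1059 and 1118 reads and log2 ratios of -0.05 and -0.27 [-0.39 to -0.15]. With the trends removed its ratios were 0.06 and -0.09.

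COL1A1, the main chain of fibrillar collagen I and a marker of collagen-producing cells (ENSG00000108821, chromosome 17, positions 50183289 to 50201632, minus strand), counted 201, 227 and 244 reads at 4.002, 4.187 and 4.003 TPM. Its log2 ratio at day 3 was 0.19 [-0.09 to 0.47], and at day 5 the fold of 0.999 [0.826 to 1.21] held 1. Its partner chain COL1A2 had 0, 10 and 6 reads, so the chains of this trimer were at unequal levels. COL9A2, a chain of a fibril-associated collagen of cartilage, had 60, 93 and 100 reads at 2.93, 4.05 and 3.90 TPM. The log2 ratio was 0.64 [0.17 to 1.14] at day 3 over day 0, the highest of the measured members, and 0.45 [-0.02 to 0.94] at day 5. At day 3 it was short of 1.5-fold in TPM with 0.5 added, at 0.41, with library totals, at 0.58, and in exon reads, at 0.56. COL17A1, the hemidesmosomal transmembrane collagen, had 120, 142 and 153 reads and log2 ratios of 0.26 [-0.10 to 0.62] and 0.07 [-0.28 to 0.43]. COL8A1, a short-chain collagen, had 184, 177 and 261 reads and log2 ratios of -0.04 [-0.35 to 0.27] and 0.22 [-0.05 to 0.50]. The intervals of COL7A1, the anchoring fibril collagen, with log2 ratios of -0.01 and -0.13, and of COL5A2, with 66, 66 and 85 reads, held 1 as well, so among the measured collagens under 5 TPM only COL9A2 at day 3 over day 0 had an interval that excluded 1 in the comparisons with day 0.

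**Figure D3:**
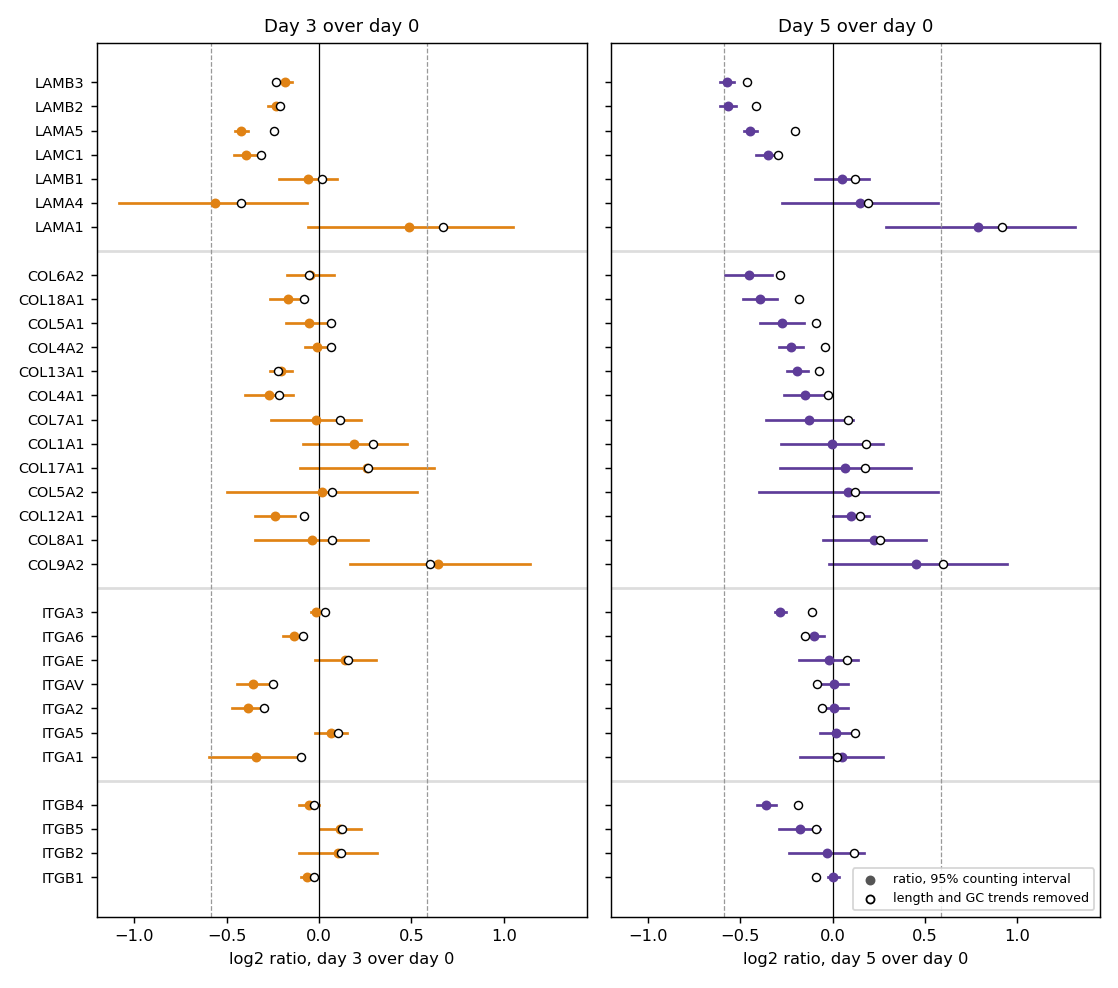
Log2 ratios of 31 of the 32 measured members at day 3 over day 0 (left, orange) and day 5 over day 0 (right, purple), with lines for 95% exact counting intervals, open circles for ratios with length and GC trends removed and dashed lines at 1.5-fold. LAMB3 and LAMB2 lie nearest the lower dashed line at day 5, COL9A2 lies above the upper line at day 3 and LAMA1 above it at day 5.

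Integrin beta 1, the partner of most alpha subunits, was the most abundant member by TPM and differed little. ITGB1 (ENSG00000150093, chromosome 10, positions 32900319 to 33005792, minus strand) counted 17971, 16983 and 21901 reads at 600, 523 and 594 TPM. The log2 ratio was -0.06 [-0.10 to -0.03] at day 3 and 0.00 [-0.02 to 0.03] at day 5 over day 0. Of its reads 73.5% were uniquely placed, and by unique reads the ratios were -0.08 and -0.01. Against the summed TPM of 6 of its alpha partners (ITGA1, ITGA2, ITGA3, ITGA5, ITGA6 and ITGAV), its TPM stood at 0.723, 0.727 and 0.822.

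ITGA3, the alpha 3 subunit that binds epithelial laminins (ENSG00000005884, chromosome 17, positions 50055968 to 50090481, plus strand), had 19674, 19238 and 19657 reads at 499, 454 and 405 TPM. Its log2 ratio was -0.02 [-0.04 to 0.01] at day 3 and -0.28 [-0.31 to -0.25] at day 5 over day 0, and -0.11 at day 5 with the trends removed. ITGA6 and ITGB4 form the laminin receptor of hemidesmosomes. ITGA6 had 4867, 4375 and 5515 reads at 147, 123 and 135 TPM, 65.8% of them uniquely placed, with log2 ratios of -0.14 [-0.20 to -0.08] and -0.10 [-0.16 to -0.04]. ITGB4 had 5769, 5486 and 5469 reads at 168, 149 and 129 TPM, with a log2 ratio at day 5 of -0.36 [-0.41 to -0.30], and of -0.19 with the trends removed; at day 3 it was -0.06. The 3 subunits were thus below day 0 at day 5, with ITGB4 the lowest, and the TPM of ITGB4 over that of ITGA6 was 1.14, 1.21 and 0.955.

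The measured collagen-binding alpha subunits were below day 0 at day 3 and near it at day 5. ITGA2, the collagen-binding alpha 2 subunit of epithelial cells, had 2742, 2073 and 3349 reads at 68.7, 48.1 and 68.1 TPM. Its log2 ratio was -0.39 [-0.47 to -0.30] at day 3 over day 0, 0.01 [-0.07 to 0.08] at day 5 over day 0 and 0.39 [0.31 to 0.47] at day 5 over day 3. ITGA1, which also binds collagen, had 292, 228 and 367 reads and log2 ratios of -0.34 [-0.60 to -0.09], 0.05 [-0.18 to 0.28] and 0.39 [0.15 to 0.63] in the same order. Of the reads of ITGA1, 74.9% were uniquely placed. ITGAV, a subunit of vitronectin and RGD receptors, had 2466, 1901 and 3008 reads with log2 ratios of -0.36, 0.01 and 0.36, and 66.1% of its reads were uniquely placed. These 3 genes are long and poor in GC, at 40.2%, 38.8% and 38.3%, and with the trends removed the day 3 over day 0 ratios were -0.30, -0.10 and -0.25. The trend-removed day 5 over day 3 ratios were 0.24, 0.11 and 0.17. Intervals of the same width around both trend-removed ratios of ITGA1 held 1.

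The remaining integrins lay on both sides of day 0, each by less than 0.2 on the log2 scale. ITGA5, the fibronectin receptor subunit, had 2040, 2108 and 2508 reads, and its log2 ratios of 0.06 [-0.02 to 0.15] and 0.02 [-0.07 to 0.10] had intervals that held 1. Of the reads of ITGA5, 77.5% were uniquely placed, and by unique reads the ratios were 0.02 and -0.03. ITGAE, the alpha E subunit known from intraepithelial lymphocytes, had 586, 639 and 702 reads and log2 ratios of 0.14 [-0.02 to 0.31] and -0.02 [-0.18 to 0.14]. ITGB5, a partner of ITGAV, had 1236, 1324 and 1327 reads, and its log2 ratio over day 0 was 0.12 [0.00 to 0.23] at day 3 and -0.18 [-0.29 to -0.07] at day 5, and it was -0.29 [-0.41 to -0.18] at day 5 over day 3. The TPM of ITGAV over that of ITGB5 was 1.62, 1.14 and 1.88, lowest at day 3. ITGB2, the leukocyte beta subunit, had 366, 388 and 435 reads with log2 ratios of 0.10 [-0.11 to 0.31] and -0.03 [-0.24 to 0.17]. Beside it, the 13 blood and immune markers, 5 of them integrins including ITGB2, summed to 91.4, 102 and 97.7 TPM. CD68, of whose reads 24.8% were uniquely placed, gave 84.4, 92.4 and 79.1 TPM of this. PTPRC had 1, 10 and 22 reads, and the part of blood cells was not tested.

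The 49 members under the minimum were at low levels. Of their ratios over day 0, only those whose interval excluded 1 are printed here and below. The floor of 3 reads is worth 0.139, 0.140 and 0.114 normalised CPM at day 0, day 3 and day 5. In every library 48 of the 49 were under 1 TPM, and 28 had at most 10 reads in each library. COL5A3 and COL9A1 had 0 reads throughout. The number at 0 reads was 11 at day 0, 9 at day 3 and 5 at day 5, the deepest library. The exception in level was ITGB3, the platelet and endothelial beta 3 subunit, with 69, 43 and 36 reads and up to 2.44 TPM, with ratios of 0.631 [0.421 to 0.936] at day 3 and 0.429 [0.279 to 0.652] at day 5 over day 0, but 8.78% of its reads were uniquely placed and its count is uncertain.

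By family, the collagens under the minimum were led by COL27A1 (51, 41 and 32 reads), COL4A4 (30, 40 and 53), COL16A1 (42, 29 and 49), COL4A5 (38, 29 and 34) and COL24A1 (26, 19 and 34). The day 5 over day 0 ratio of COL27A1 was 0.516 [0.321 to 0.819]. COL11A2, COL15A1, COL20A1, COL9A3, COL4A3 and COL6A3 had between 8 and 26 reads in each library. Of these COL6A3, with 21, 9 and 10 reads, had ratios of 0.434 [0.175 to 0.988] at day 3 and 0.392 [0.165 to 0.870] at day 5 over day 0. COL3A1, the fibrillar collagen of soft connective tissue, had 1, 24 and 4 reads, all uniquely placed, a day 3 over day 0 ratio of 24.3 [3.96 to 999]. COL1A2 at day 3 was 3.37-fold above the floor of 3 reads taken for day 0, where it had 0 reads. The exact interval of that ratio began at 2.27. COL1A1, COL1A2 and COL3A1 belong to the fibroblast and mesenchymal list, and its members did not move together. LUM had 0, 2 and 0 reads, THY1 0, 3 and 1 and PDGFRA 1, 1 and 0, whereas PDGFRB had 130, 74 and 70, with log2 ratios of -0.79 [-1.23 to -0.37] and -1.17 [-1.61 to -0.74]. The list summed to 4023, 4137 and 3593 TPM, of which VIM alone gave 4016, 4130 and 3588. The part of such cells was not tested. The other 15 (COL2A1, COL6A5, COL6A6, COL8A2, COL10A1, COL11A1, COL14A1, COL19A1, COL21A1, COL22A1, COL23A1, COL25A1, COL26A1, COL28A1 and COL4A6) had at most 9 reads.

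Under the minimum among laminins, LAMA2, the alpha chain of muscle and nerve, had 36, 56 and 50 reads, a day 3 over day 0 ratio of 1.57 [1.02 to 2.46], and LAMB4 and LAMC3 had at most 4. Among integrin alpha subunits, ITGA10 had 33, 16 and 31 reads, with a day 3 over day 0 ratio of 0.491 [0.252 to 0.917]. ITGA2B, the platelet subunit, had 13, 3 and 8, with a ratio of 0.233 [0.0427 to 0.850], and ITGA7 had 14, 8 and 19. ITGAL, the leukocyte subunit of LFA-1, had 0, 0 and 12 reads, at day 5 3.29-fold above the floor taken for day 0. The exact interval of that ratio began at 2.29. The 12 reads were in the library in which PTPRC had 22 reads and HBB 28, against 1 of each at day 0. ITGA4, ITGA8, ITGA9, ITGA11, ITGAD, ITGAM and ITGAX had at most 7 reads. Among beta subunits, ITGB6, known from epithelia, had 17, 3 and 8 reads, with ratios of 0.179 [0.0335 to 0.617] at day 3 and 0.387 [0.145 to 0.947] at day 5 over day 0. Intron reads were 16, 3 and 3 of these, so the ratios rest mostly on introns. Its TPM was 0.0319, 0 and 0.130, and thus higher at day 5 than at day 0. ITGB8 had 13, 16 and 14 reads, and ITGB7 1, 1 and 4.

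The median ratios of genes that modify, fold and export collagens were a little above 1 at day 3 by the normalised reads, and at -0.01 on the log2 scale in TPM, in which the median of all genes was -0.08. Lists of them were read from genes known for these tasks, and the counts cover genes averaging 50 reads or more. Of 19 genes for collagen modification and folding, 18 were measured, and 14 had a ratio above 1 at day 3 over day 0 (52.0% of all genes) and 6 at day 5 (51.2%), with medians of 0.08 and -0.15. With the trends removed the medians were 0.06 and -0.07, and 0 reached 1.5-fold in either direction. PPIB, the ER cyclophilin of the prolyl 3-hydroxylase complex, had 6032, 8374 and 8614 reads with log2 ratios of 0.49 [0.44 to 0.54] and 0.23 [0.19 to 0.28]. P4HA1, the catalytic subunit of prolyl 4-hydroxylase, had log2 ratios of 0.29 and 0.41 [0.25 to 0.58], and P4HB, its protein disulfide isomerase subunit, 0.28 [0.25 to 0.31] and 0.08. At day 3 the lowest were P3H2, a prolyl 3-hydroxylase, at -0.19 and PLOD2, a lysyl hydroxylase, at -0.13. At day 5 the lowest were COLGALT1, a collagen galactosyltransferase, at -0.41 [-0.47 to -0.34] and P4HA2 at -0.31. FKBP14, an ER prolyl isomerase, was the highest at day 5, at 0.48 [0.25 to 0.71], with 39.2% of its reads uniquely placed. By unique reads it was at 0.14 at day 5, below P4HA1 at 0.43, and at day 3 it was at -0.19 against 0.18 by all reads.

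All 18 genes of the procollagen export list were measured, with 11 above 1 at day 3 and 14 at day 5 over day 0, medians of 0.09 and 0.06, and 0 at 1.5-fold. SEC13, a COPII coat subunit, was the highest at day 3, at 0.31 [0.25 to 0.36], with STX18 at 0.20. CTAGE5, an exit-site partner of TANGO1, was the highest at day 5, at 0.39 [0.25 to 0.54], with TRAPPC2, the sedlin subunit of a tether, at 0.30. SEC16A, the exit-site scaffold, was the lowest at both times, at -0.19 and -0.15, with SEC24B at -0.09 at day 3 and SEC13 at -0.03 at day 5. Of 16 genes for procollagen cleavage and crosslinking, 10 were measured, with 6 above 1 at each time, medians of 0.06 and 0.07, and 0 at 1.5-fold with an interval that excluded 1. The median changed side with the counting: it was -0.05 at day 3 in TPM, and -0.19 and -0.08 at day 3 and day 5 over the genes with at least 90% uniquely placed reads. PCOLCE, an enhancer of procollagen C-proteinase, was at 0.43 [0.03 to 0.83] and PCOLCE2 at 0.36 at day 3, while TLL2, a proteinase of that class, was at -0.60 [-1.27 to 0.03] and ADAMTS3, an N-proteinase, at -0.53. At day 5 LOX, the collagen crosslinking oxidase, was at 0.48 [0.23 to 0.75] with 57.2% of its reads uniquely placed, PCOLCE2 was at 0.42, FURIN was at -0.42 and BMP1 at -0.29.

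Other matrix genes had median ratios below 1 at both times, as the laminins did. Of 20 listed, 9 were measured, with 1 above 1 at day 3 and 0 at day 5 over day 0, and medians of -0.17 and -0.28. With the trends removed these were -0.07 and -0.21. HSPG2, the basement membrane proteoglycan perlecan, had 1098, 685 and 913 reads, was past 1.5-fold lower at day 3, at -0.66 [-0.80 to -0.52], and was at -0.55 [-0.68 to -0.42] at day 5. It has 17684 bases of exon and 64.5% GC, and with the trends removed it was short of 1.5-fold, at -0.47 and -0.30. THBS1, thrombospondin 1, was at -0.47 and -0.51. SPARC, a collagen-binding glycoprotein, was the highest at day 3, at 0.26 [0.11 to 0.40], and was at -0.20 at day 5. TNC, tenascin C, followed at -0.05 at day 3 and was the highest at day 5, at -0.14.

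Of 23 integrin-linked adhesion genes, 22 were measured, with 6 above 1 at day 3 and 4 at day 5 over day 0, medians of -0.08 and -0.23, and 0 at 1.5-fold. With the trends removed the medians were -0.01 and -0.12. DST, the cytolinker dystonin, was the lowest at day 3, at -0.55 [-0.61 to -0.50], followed by TNS3, a tensin, at -0.27. DST has 42341 bases of exon, and with the trends removed it was at -0.21 at day 3 and TNS3 was at -0.15. At day 5 TNS3 was at -0.49 and TNS1 at -0.46. TNS1 was the highest at day 3, at 0.30 [-0.07 to 0.67], followed by ILK, the integrin-linked kinase, at 0.14. The kindlins FERMT2, at 0.17 [0.10 to 0.24], and FERMT1, at 0.16, were the highest at day 5. Of 12 other matrix receptors, 8 were measured, with 4 above 1 at day 3 and 1 at day 5, and medians of -0.06 and -0.21. MRC2, the collagen uptake receptor, had 659, 499 and 471 reads, was at -0.38 [-0.56 to -0.21] at day 3 and was past 1.5-fold lower at day 5, at -0.76 [-0.94 to -0.59]. BCAM, a laminin alpha 5 receptor, was at -0.33 and -0.34, and DDR1, a collagen receptor kinase, at -0.37 at day 5. RPSA, the ribosomal protein also known as a laminin receptor, was at 0.28 and SDC4, syndecan 4, at 0.20 at day 3. At day 5 SDC4 was at 0.01 and CD44 at -0.04.

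**Figure D4:**
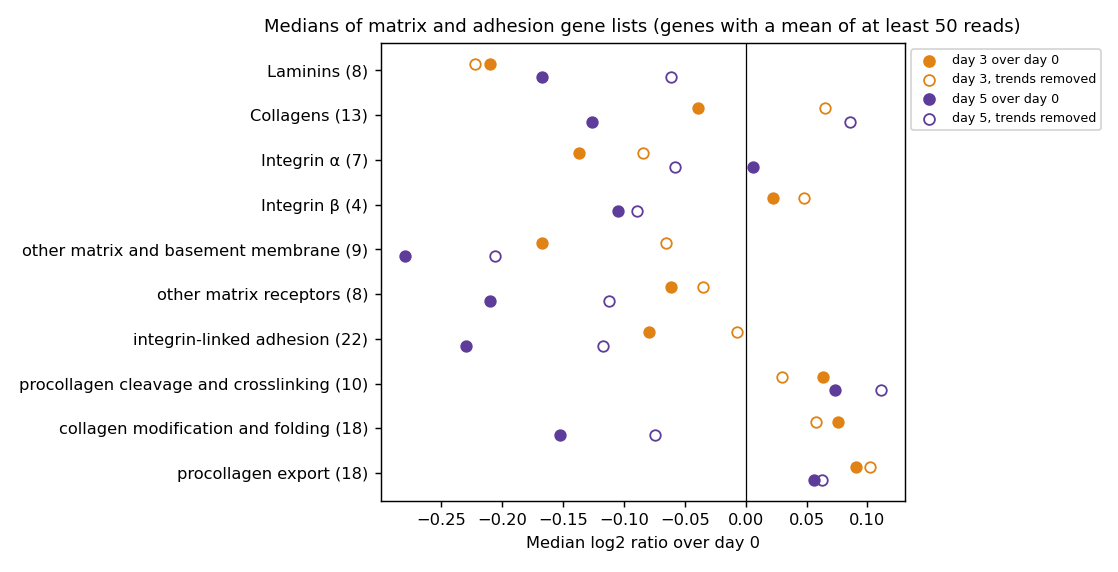
Median log2 ratio of each member family and each pathway list (number of measured genes in brackets) at day 3 over day 0 (orange) and day 5 over day 0 (purple), with open circles after removal of length and GC trends. Laminins lie near -0.2 at day 3 with and without the trends, collagens change side of 0, and procollagen export lies above 0 (at day 3 it is -0.01 in TPM).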

How the data were processed

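RNA-seq of 3 libraries was analysed, 1 per time. Per the labels' protocols, total RNA went into a SMARTer mRNA kit. Per the file headers, the authors deposited for each gene read counts (total, unique, exon and intron gene reads), TPM and exon length. An RPKM column was not used. The sources used here do not name the aligner, the counter or any use of strand, so reads of overlapping and antisense genes cannot be told apart. The submitters' processing notes name mm10, a mouse build, but the identifiers are human, and 56508 of 58243 genes, among them 68 of the 81 members, have the same position in GENCODE 29 on GRCh38. A series-wide table, with 3 sample columns, was not used.

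Total gene reads were scaled by TMM factors of 1.01, 0.968 and 1.02 (edgeR 4.0.16, R 4.3.3). Log2 ratios had a prior count of 0.5, with exact conditional Clopper-Pearson 95% intervals, and were formed over the 12593 genes averaging 50 reads or more. A member counted as different at 1.5-fold with an interval excluding 1. Uniquely placed reads were 89.2%, 88.6% and 87.6% of all. Intervals and floors cover counting error only, since there was 1 library per time. The labels mention no molecular identifiers, so reads copied in amplification could not be set aside and the counting error may be understated. The median half-width of the members' log2 intervals was 0.12 at day 3 and 0.12 at day 5 over day 0. Trends on exon length and GC content of the longest GENCODE 29 transcript were removed by lowess (span 0.3, 3 rounds) for 12487 genes. Members on full display were chosen by rule: COL1A1, the 4 highest by TPM in each family, those past 1.5-fold and the 3 highest and lowest ratios per comparison, 23 in all. From each pathway list the 2 highest and 2 lowest ratios are named. The work used scipy 1.17.1 and statsmodels 0.14.6 with pandas 2.3.3, numpy 2.4.6 and matplotlib 3.10.9 in Python 3.11.15. The steps were tested on simulated counts. The members, lists, rules and alternatives were chosen with earlier results of these data known. Some genes of these families are not reported here by name, so the figures show 31 of the 32 measured members, while counts and medians cover all 32.

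The 13 alternatives were library totals, size factors of DESeq2 1.42.0, exon reads, unique reads, TPM of the authors plus 0.5, a minimum of 10 or 200 reads or none, a prior count of 5, trend removal, protein-coding genes, genes with at least 90% unique reads, and leaving out mitochondrial and the 20 most abundant genes. Protein sequence features were not analysed here.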

Additional observations from a re-analysis of the deposited data

Results flagged for a closer look

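ITGB5 and COL12A1 lay on opposite sides of day 0 at the later times, each with both counting intervals excluding 1. On the side above 1 this was by very little. The lower log2 limits were 0.003 for ITGB5 at day 3 and 0.005 for COL12A1 at day 5, and these ratios in TPM were 0.02 and 0.09. The log2 ratio of ITGB5 was 0.12 at day 3 and -0.18 at day 5 over day 0, and at day 5 over day 3 it was -0.29 [-0.41 to -0.18]. With the length and GC trends removed its ratios over day 0 were 0.13 and -0.09. The log2 ratio of COL12A1 was -0.24 at day 3 and 0.10 at day 5 over day 0, and at day 5 over day 3 it was 0.34 [0.24 to 0.44]. With the trends removed its ratios over day 0 were -0.08 and 0.15. Intervals of the same width around the trend-removed ratios held 1 for ITGB5 at day 5 and for COL12A1 at day 3. The intervals cover counting error only, and the difference between the times was not tested because there was 1 library per time.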

How the results depend on the processing

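The members' median at day 3 over day 0 stayed below 0 in all 13 alternatives and was -0.18 in TPM, in which the median of all genes was -0.08. At day 5 over day 0 it was 0 with no minimum and below 0 in the others. At day 5 over day 3 it changed side in TPM (0.07), with library totals (0.04), with trends removed (0.01) and with no minimum (0.01). No scaling moved the median of all genes by over 0.1. With library totals, 0 members were 1.5-fold higher and 1 lower at day 3 over day 0. In TPM, 0 were higher in each of the 3 comparisons, 1 was lower at day 5 over day 0, and 9 had a ratio above 1 there. Exon reads gave 1 lower at day 3 and 1 at day 5 over day 0, and unique reads gave 0 higher at day 5 over day 3. With the trends removed, 2 were higher at day 3 (COL9A2 and LAMA1) and 2 at day 5 over day 0, and 15 had a ratio above 1 at day 3. These counts sit beside 1 higher and 0 lower by the rule used in the report, and the cause was not tested. Over all genes with the trends removed, 134 of 12487 were higher at day 3 and 165 at day 5 over day 0. For the other settings no share over all genes is given, so their counts describe the processing and not the members.

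A minimum of 10 reads admits 49 members: 2 were higher, 3 lower and 15 above 1 at day 3, 3 lower and 22 above 1 at day 5 over day 0, and 23 above 1 at day 5 over day 3. With no minimum (79 members) these were 4, 5 and 29 at day 3, 2 higher, 4 lower and 39 above 1 at day 5 over day 0, and 2, 1 and 40 at day 5 over day 3. A minimum of 200 reads leaves 27 members, with 0 higher in each comparison and 5 and 9 above 1 at day 3 and day 5 over day 0. More or fewer genes tested is the construction of these alternatives. They compare 15604, 24758 and 10137 genes in this order. No share over all of those genes is given beside the counts, which are not read as results about the members. Of 69 ratios of named members, 23 in TPM, 31 with trends removed, 20 with library totals, 2 with exon reads and 1 with unique reads left the counting interval of the reported ratio.

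Depth limits the 49 members under the minimum, and 1 library per time limits every ratio. No paired analysis was possible because there was 1 library per time.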
